A study of Homo sapiens with 6 samples.

Results

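Protein kinase C (PKC) is a family of serine and threonine kinases that carry signals from the cell membrane, and 8 of its genes, PRKCA, PRKCB, PRKCD, PRKCE, PRKCH, PRKCI, PRKCQ and PRKCZ, were followed here by gene name among the 62700 rows of the count table. All 8 had a row and all 8 passed the filter on low counts. The samples were 3 libraries labelled EWS-FLI1 knockout and 3 labelled as the parental control, with wild-type EWS-FLI1, both of A673, an established cell line from a Ewing sarcoma, grown in DMEM with serum. EWS-FLI1, the driver of this tumour, joins part of EWSR1 to the DNA-binding part of the ETS factor FLI1. The method of knockout, the number of clones and the origin of the replicates are not in the labels. The p-values therefore cover only library-to-library spread, which may be technical, and differences between clones cannot be told apart from loss of the fusion.

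Members of the PKC family share a C-terminal kinase domain and differ in the N-terminal part that switches it on. The conventional isoforms (cPKC), here PRKCA and PRKCB, respond to calcium and to the membrane lipid diacylglycerol. The calcium-independent class (nPKC), here PRKCD, PRKCE, PRKCH and PRKCQ, responds to diacylglycerol without calcium, and the atypical class (aPKC), PRKCI and PRKCZ, responds to neither and acts in protein complexes such as the one that sets cell polarity. Diacylglycerol is made by phospholipase C downstream of receptors and removed by diacylglycerol kinases. PRKCB is best known from B lymphocytes, and in Ewing sarcoma it has been described as a gene that EWS-FLI1 activates and that the tumour cells need.

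Totals ranged from 301605666 to 310465330 estimated counts in knockout and from 324069161 to 342624492 in parental libraries. The 10 Ewing sarcoma markers examined were all called lower in knockout libraries (edgeR, adjusted p under 0.05), with a median log2 fold change of -3.07. Over all 28485 tested genes, 37.5% were called lower. EWSR1 held 245 ± 6.21 CPM in knockout and 293 ± 6.20 CPM in parental libraries, and FLI1 53.1 ± 2.11 CPM in knockout and 40.7 ± 1.15 CPM in parental libraries (SD, n = 3 each), where CPM is the count relative to library size, scaled by TMM. A count per gene adds fusion reads to those of the normal genes, so these values do not check the genotype. Of 18 haematopoietic markers, examined because several PKC isoforms are known from blood cells, 12 stayed under 1 CPM in both groups. MS4A1 (CD20) had 0 counts in every library, and CD3E averaged 0.00624 CPM in knockout and 0.000876 CPM in parental libraries. Of the 13 that could be tested, 5 rose, 5 fell and 3 did not pass. That is 76.9% called, near the 73.8% over all tested genes (36.3% higher, 37.5% lower), so the tally says nothing particular about these markers. CD79A, a B cell receptor subunit, fell together with PRKCB, to 0.265 ± 0.0740 CPM in knockout libraries, against 13.03 ± 1.23 CPM in parental libraries (-5.62 on the log2 scale, SE 0.15), and CD79B was under 1 CPM in both groups and fell by 5.39 on the log2 scale (SE 0.41). The leukocyte marker PTPRC (CD45) rose by 3.55 (SE 0.18) to 1.49 ± 0.157 CPM in knockout libraries, against 0.127 ± 0.0272 CPM in parental libraries, and CD4 and the macrophage marker CD68 rose by 1.38 (SE 0.14) and 1.27 (SE 0.075). CD3E, MS4A1, CD79B and PTPRC were named after their values were seen. The summed level of the 18 lay between 595 and 659 CPM in knockout and between 34.7 and 38.7 CPM in parental libraries, and NCAM1, which cells outside the blood also express, gave 613 ± 31.5 and 15.4 ± 0.148 CPM of it (SD, n = 3 each). The part of such markers in the results below was not tested. In these bulk samples fewer cells of a kind and less RNA per cell cannot be told apart.

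The stretches of DNA in front of PRKCB and PRKCA are shown because these genes had the largest fall and the largest rise among the 8. PRKCB lies on chromosome 16 from 23835946 to 24220611 and PRKCA on chromosome 17 from 66302636 to 66810743, both on the plus strand (GENCODE release 29, GRCh38). The sequences are those of RefSeq (GRCh38.p14), plus strand, 5′ to 3′, for chr16:23835733-23835932, which runs from 250 to 51 bases before the RefSeq start of PRKCB, and chr17:66302363-66302612, the 250 bases before that of PRKCA. Capitals mark the octamer ATGCAAAT, a word read by POU factors, and the GC box GGGCGG in the PRKCB sequence, and the GC box and the ETS core GGAA, or its reverse complement TTCC, in the PRKCA sequence.
PRKCB: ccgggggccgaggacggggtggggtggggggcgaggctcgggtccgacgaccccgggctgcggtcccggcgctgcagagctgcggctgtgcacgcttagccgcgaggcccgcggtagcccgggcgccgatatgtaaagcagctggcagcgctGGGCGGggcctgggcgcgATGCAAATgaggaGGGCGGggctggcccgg
PRKCA: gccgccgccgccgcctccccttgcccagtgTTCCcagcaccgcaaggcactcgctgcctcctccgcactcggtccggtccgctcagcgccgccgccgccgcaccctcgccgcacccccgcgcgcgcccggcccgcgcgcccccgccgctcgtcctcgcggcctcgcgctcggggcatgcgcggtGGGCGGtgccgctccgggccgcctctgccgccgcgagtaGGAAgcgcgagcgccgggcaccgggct

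Over the full 250 bases before the start, searched on both strands, PRKCB held the octamer once, 80 bases before the start, between GC boxes that began 98 and 67 bases before it, and GGAA 0 times. The octamer stood in 1.63% and GGAA in 92.7% of 35116 such RefSeq windows. PRKCA held GGAA at 220 and 27 bases and 1 GC box at 66 bases before its start, a word that 42.6% of windows hold. Neither window held the tandem GGAAGGAA, present in 3.06% of windows, or the AP-1 word TGANTCA, present in 6.57%. The E-box CAGCTG, in 14.0% of windows, occurred 2 times before PRKCB and 0 times before PRKCA. None of the windows at hand for the other 6 genes held the octamer. GC content was 77.2% before PRKCB and 82% before PRKCA, against a median of 58% over all windows. Such matches describe letters in a window and not binding.

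The conventional isoforms changed in opposite directions. PRKCB held 3.56, 3.28 and 3.53 CPM in knockout libraries, against 388, 396 and 395 CPM in parental libraries. All 3 knockout libraries lay far below all 3 parental ones. On the log2 scale, knockout over parental, the difference was -6.83 (SE 0.063, edgeR adjusted p = 6.50e-27), a level 114-fold lower in knockout libraries. In estimated counts this was 909, 851 and 972 in knockout and 147832, 149595 and 157431 in parental libraries.

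That fall was close to the lower limit of what a gene abundant in parental libraries showed in this table. In estimated counts, not scaled between libraries, PRKCB kept 0.601% of its parental mean in the knockout libraries. The TMM-scaled fold, knockout over parental, was 0.00879. Of 3990 tested genes with a mean of at least 20000 parental counts, 7, PRKCB among them, kept that share or less. The lowest kept 0.532% and 71 kept under 1%, while the median gene of the set kept 61.1%. These shares are unscaled as well, and with TMM the median log2 fold change of all tested genes was -0.06. The set was chosen by parental counts alone, so genes high only in knockout libraries could not enter it. The rank is a description and not a test. What the remaining PRKCB counts come from was not tested. Of the 11093 31-base words in annotated PRKCB transcripts, 38 also occur in another gene, and 23 of these occur in PRKCA. No other pair among the 8 genes shared a 31-base word.

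PRKCA, the widely expressed conventional isoform, held 189, 170 and 160 CPM in knockout libraries, against 5.55, 5.56 and 5.66 CPM in parental libraries. The groups did not overlap. In CPM the knockout libraries were spread more widely, at 173 ± 14.7 against 5.59 ± 0.0616 in parental libraries (SD, n = 3 each). The level was 30.98-fold higher, 4.95 on the log2 scale (SE 0.066, edgeR adjusted p = 1.76e-24). Of its 11147 31-base words, 430, or 3.86%, stand in transcripts of other genes.

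**Figure D1:**
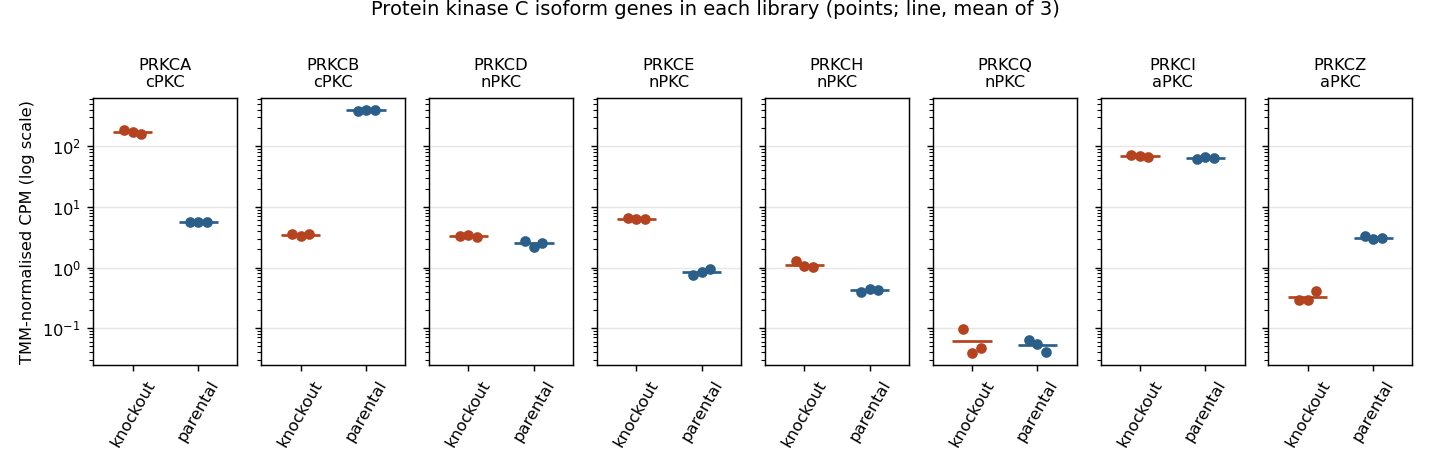
TMM-normalised CPM on a log axis for each of the 8 isoform genes, knockout left and parental right in each panel, 1 point per library and a line at the mean of 3. PRKCA, PRKCE, PRKCH and, by a small gap, PRKCD stand higher and PRKCB and PRKCZ lower in all 3 knockout libraries. The groups overlap for PRKCQ and PRKCI.

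All 4 calcium-independent isoforms were low in the parental cells, and 3 of them were called higher with TMM scaling. The call of PRKCD depended on the scaling. PRKCE, an isoform linked to cell spreading and growth signalling, held 6.52, 6.40 and 6.32 CPM in knockout libraries, against 0.738, 0.831 and 0.928 CPM in parental libraries. Every knockout library was above every parental one, and the level was 7.70-fold higher, 2.94 on the log2 scale (SE 0.099, edgeR adjusted p = 2.94e-17). PRKCH, known mainly from epithelia, held 1.28, 1.06 and 1.03 CPM in knockout and 0.399, 0.447 and 0.429 CPM in parental libraries. It too separated the groups and rose by 1.40 (SE 0.15, edgeR adjusted p = 2.69e-08). In all, 9.64% of the 31-base words of PRKCH stand in other genes, among them TMEM30B, a minus-strand gene overlapping it that held 0.0466 ± 0.0132 and 0.0269 ± 0.00719 CPM in knockout and parental libraries (SD, n = 3 each).

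PRKCD, which is widely expressed and linked to apoptosis, held 3.34, 3.38 and 3.14 CPM in knockout and 2.75, 2.21 and 2.55 CPM in parental libraries. These groups lay apart by less than the width of the parental group. It rose by 0.39 (SE 0.098, edgeR adjusted p = 0.00116), but the value was -0.03 with libraries scaled by total count only (adjusted p = 0.774) and 0.19 with upper quartile factors (adjusted p = 0.0877). PRKCQ, the isoform of the T cell synapse, was near the limit of detection, with 25, 10 and 13 estimated counts in knockout and 24, 21 and 16 in parental libraries. Its libraries overlapped and it did not pass the test (log2 fold change 0.21, 95% interval -0.69 to 1.10, edgeR adjusted p = 0.677). These few counts are compatible with no change and with a change anywhere in that interval.

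The atypical isoforms differed from each other. PRKCI, the kinase of the PAR polarity complex, held 72.8, 70.3 and 66.2 CPM in knockout and 61.2, 66.4 and 65.0 CPM in parental libraries. These groups overlapped, and the difference of 0.12 on the log2 scale (SE 0.052, edgeR adjusted p = 0.0421) turned to -0.31 with total counts only (adjusted p = 4.16e-05) and to -0.08 with upper quartile factors (adjusted p = 0.109), so its direction rests on the scaling. PRKCI shares 643 of its 31-base words, 11.1%, with a processed copy on the X chromosome, PRKCIP1, whose own row held 5.03, 2.01 and 3.02 counts in knockout and 3.02, 3.02 and 13.1 in parental libraries.

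PRKCZ, whose internal start gives the brain form PKM-zeta, held 0.289, 0.293 and 0.410 CPM in knockout libraries, against 3.27, 2.99 and 3.10 CPM in parental libraries. The groups were well apart, and the level was 9.41-fold lower in knockout libraries, -3.23 on the log2 scale (SE 0.14, edgeR adjusted p = 3.01e-15). It shares 533 31-base words with FAAP20, a DNA repair gene on the minus strand whose span overlaps it. FAAP20 moved the other way, at 68.8 ± 2.92 CPM in knockout and 27.4 ± 2.18 CPM in parental libraries (SD, n = 3 each). PRKCZ-AS1, antisense to it, also rose, with 0.927, 1.01 and 1.07 CPM in knockout and 0.299, 0.344 and 0.411 CPM in parental libraries (1.51 on the log2 scale, SE 0.16, edgeR adjusted p = 2.55e-08). The labels do not state a stranded library, so reads of overlapping genes may not be told apart. PRKCH-AS1 and PRKCQ-AS1 did not pass (edgeR adjusted p = 0.802 and 0.254), and PRKCA-AS1, PRKCE-AS1, PRKCZ-DT and PRKCIP1 were too low to test.

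In all, 5 of the 8 genes rose, 2 fell and 1 did not pass, among 28485 tested genes of which 73.8% passed, 36.3% higher and 37.5% lower. The groups did not overlap for 6 of the 8, against 76.7% of all tested genes. With a log2 fold change beyond 1, 3 rose and 2 fell, and over all tested genes 21.8% rose and 20.3% fell by that much. Changed genes were thus common in the rest of the table as well, and with only 8 genes the counts say nothing particular about PKC. With total counts only, 3 rose and 3 fell, and with upper quartile factors 3 rose and 2 fell. Those scalings moved the median of all genes by -0.42 and -0.20 on the log2 scale. Relative to that moved median, a step added after seeing the data, total count scaling gave PRKCD 0.45, PRKCI 0.17, PRKCA 5.01 and PRKCB -6.77. Centring on the median assumes that the typical gene did not change, so it cannot decide the direction of PRKCD or PRKCI.

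**Figure D2:**
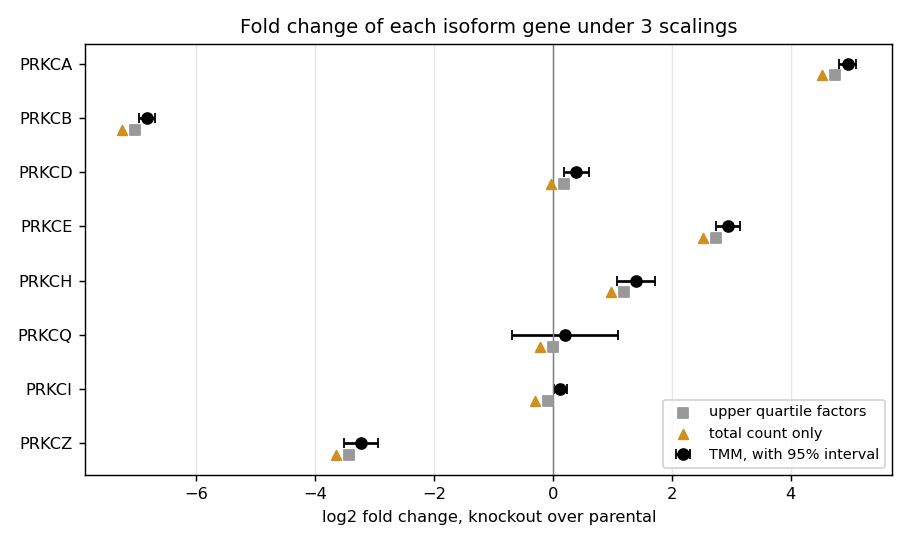
Log2 fold change, knockout over parental, of each isoform gene with TMM scaling (circles, with the 95% interval of the edgeR fit) and with upper quartile factors (squares) or total counts only (triangles). PRKCA, PRKCB, PRKCE, PRKCH and PRKCZ stay on their side of 0 under all 3, PRKCI turns from 0.12 to -0.08 and -0.31, and PRKCD ends at -0.03.

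To compare levels between the isoforms, CPM was divided by the length of the principal coding transcript in GENCODE release 29, which ranged from 2.33 kb for PRKCZ to 8.75 kb for PRKCA. In knockout libraries PRKCA led with 19.8 ± 1.68 CPM per kb, before PRKCI at 14.1 ± 0.677, PRKCD at 1.17 ± 0.0465, PRKCE at 1.14 ± 0.0186, PRKCB at 0.431 ± 0.0187, PRKCH at 0.313 ± 0.0385, PRKCZ at 0.142 ± 0.0295 and PRKCQ at 0.0186 ± 0.00974 (SD, n = 3). PRKCD and PRKCE overlapped there, and no other neighbours in that order did. In parental libraries PRKCB led with 49.1 ± 0.511 CPM per kb, before PRKCI at 12.97 ± 0.543, PRKCZ at 1.34 ± 0.0606, PRKCD at 0.891 ± 0.0972, PRKCA at 0.638 ± 0.00704, PRKCE at 0.147 ± 0.0168, PRKCH at 0.119 ± 0.00676 and PRKCQ at 0.0161 ± 0.00356, with no overlap between neighbours. Parts of these orders depend on the length used. With merged exons PRKCZ ranked 5 in parental libraries, at 0.409 ± 0.0184 CPM per kb, after PRKCD at 0.737 ± 0.0805 and PRKCA at 0.501 ± 0.00552, and with the shortest coding transcript PRKCB ranked 3 in knockout libraries, at 1.28 ± 0.0552 CPM per kb, overlapping PRKCD. With all 3 lengths PRKCI was second in both genotypes, and the leading isoform was PRKCA in knockout and PRKCB in parental cells.

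PRKCB made up 1.12%, 1.11% and 1.26% of the summed level of the 8 genes per kilobase in knockout libraries, against 75.6%, 75.1% and 75.1% in parental libraries. PRKCA made up 54.6%, 52.7% and 52.6% in knockout libraries, against 0.988%, 0.965% and 0.985% in parental libraries. Conventional isoforms thus had the largest share in both genotypes, supplied by different genes. The sum of the 8 genes was 37.1 ± 2.41 CPM per kb in knockout and 65.2 ± 0.928 CPM per kb in parental libraries, and without PRKCB it was 36.6 ± 2.40 and 16.1 ± 0.417 CPM per kb (SD, n = 3 each). These values depend on transcript length: PRKCB has coding transcripts of 8010 and 7969 bases and of 2744 and 2707 bases, known as splice forms with different C-terminal exons, and the table does not say which were expressed. With the shortest coding transcript of each gene, the PRKCB share was 3.37% in knockout and 89.8% in parental libraries, and the sum of the 8 genes was 38.01 ± 2.41 CPM per kb in knockout and 162 ± 1.91 CPM per kb in parental libraries.

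**Figure D3:**
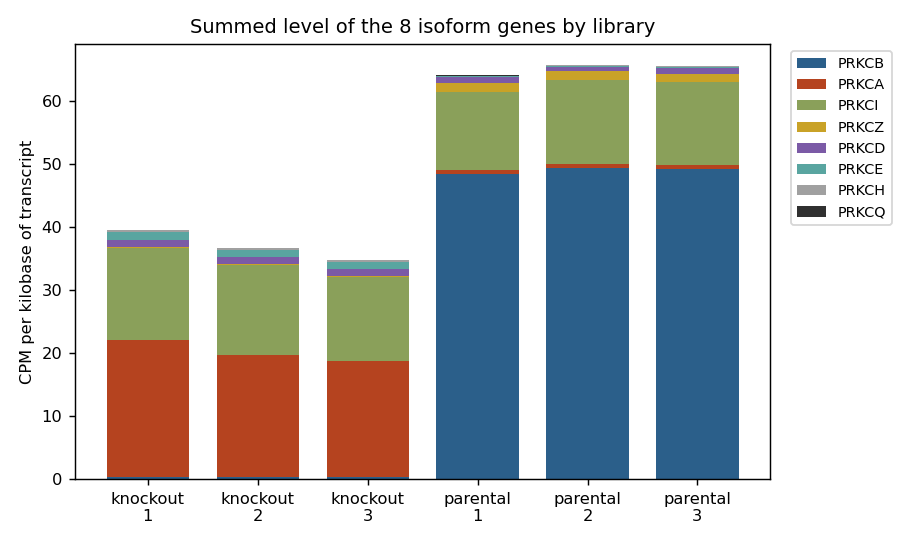
Stacked bars of CPM per kilobase of principal transcript for the 8 isoform genes, knockout libraries left and parental libraries right. PRKCA and PRKCI fill most of the knockout bars, which reach between 34.8 and 39.6, and PRKCB most of the parental bars, which reach between 64.1 and 65.8.

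The genes next to each isoform gene were examined for the nearest tested protein-coding gene on each side. Over all tested genes 73.8% passed, so a changed neighbour is by itself common. After PRKCB, at 34.9 kb, lies CACNG3, a calcium channel gamma subunit that serves as a partner of AMPA receptors, which fell with it to 0.371 ± 0.0320 CPM in knockout libraries, against 43.8 ± 1.43 CPM in parental libraries (log2 fold change -6.88, SE 0.078). CHP2, 77.0 kb before PRKCB, was near 0 in both groups, at 0.160 ± 0.0413 and 0.142 ± 0.0305 CPM, and did not pass (edgeR adjusted p = 0.596). PRKCA has a gene of the same channel family, CACNG5, 24.4 kb after it, and there the neighbours went opposite ways: CACNG5 fell to 0.199 ± 0.0491 CPM in knockout libraries, against 8.11 ± 0.203 CPM in parental libraries (-5.34, SE 0.13). APOH, before PRKCA, held under 0.1 CPM in both groups and did not pass (edgeR adjusted p = 0.0604).

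After PRKCE lies EPAS1, the hypoxia factor HIF-2 alpha, which rose with it, by 7.48 (SE 0.069), at a distance of 106 kb. SRBD1, nearer to PRKCE at 39.2 kb on the other side, fell by 0.56 on the log2 scale (SE 0.058, edgeR adjusted p = 1.31e-08). On both sides of PRKCH the genes rose, SLC38A6 at 104 kb by 0.83 (SE 0.060) and HIF1A at 145 kb by 1.21 (SE 0.051). TKT, after PRKCD, rose by 1.22 (SE 0.051). Further, SKI, after PRKCZ, rose by 1.27 (SE 0.051) where PRKCZ fell, while GABRD, before PRKCZ, fell by 4.44 on the log2 scale (SE 0.26). On both sides of PRKCI the genes rose, PHC3 by 0.76 (SE 0.086) and SKIL by 0.88 (SE 0.056). The nearest tested genes to PRKCQ lie far from it. SFMBT2, at 578 kb, changed by -5.95 (SE 0.15) and PFKFB3, at 172 kb on the other side, by 1.53 (SE 0.049).

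The genes whose profile over the 6 libraries was closest to that of PRKCB, by the root mean square distance of log2 CPM centred on each gene, were ROBO2, NELL2, PTGER3, SHISA6 and BARX2, at distances from 0.045 to 0.056 among 21532 named genes. ROBO2 is an axon guidance receptor, NELL2 a secreted neural protein, PTGER3 a receptor of prostaglandin E2, SHISA6 a partner of glutamate receptors and BARX2 a homeobox factor. Their log2 fold changes ranged from -6.92 to -6.76. NELL2, the most abundant, held 11.5 ± 0.798 CPM in knockout and 1285 ± 18.7 CPM in parental libraries (SD, n = 3 each). With 6 libraries in 2 groups, this likeness is mostly the size of the difference between genotypes.

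Genes around PKC signalling moved both up and down, beside a median log2 fold change of -0.06 and 73.8% called among all tested genes. Of 130 genes in 9 lists, 125 could be tested, of which 73 rose, 37 fell and 15 did not pass, 88.0% called, with a median of 0.40. With total counts only these were 54 risen and 55 fallen genes with a median of -0.02. All tested genes then had a median of -0.48, with 7370 higher and 14949 lower. With upper quartile factors the lists held 63 and 45 with a median of 0.20, and all tested genes had a median of -0.26. The tallies of single lists with total counts only, and of some lists with upper quartile factors, are given below and stand beside those shifted medians. Of the 130 genes, 24 stayed under 1 CPM in both groups. Upstream, of 29 tested receptors coupled to the G protein Gq and their G protein subunits, 17 rose and 9 fell, with a median of 1.05. With total counts only, 14 rose and 10 fell, with a median of 0.63. Of the 32 genes on that list, 12 stayed under 1 CPM in both groups. The bradykinin receptor BDKRB2 rose to 405, 404 and 373 CPM in knockout libraries, against 2.10, 2.05 and 1.99 CPM in parental libraries (7.59, SE 0.067), with BDKRB1 at 7.22 (SE 0.086) and the prostaglandin F receptor PTGFR at 6.19 (SE 0.089). The adrenergic receptor ADRA1D instead held 2.70, 2.43 and 2.59 CPM in knockout libraries, against 278, 235 and 248 CPM in parental libraries (-6.62, SE 0.077), and its relative ADRA1A fell by 6.50 on the log2 scale (SE 0.088). BDKRB2 was thus abundant in knockout and ADRA1D in parental cells.

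All 14 tested genes of the phospholipase C list passed, 10 higher and 4 lower, with a median of 1.12. With total counts only, 8 rose and 5 fell, with a median of 0.70. The list follows the family name, and whether each member makes diacylglycerol was not examined. Of the 14, 3 stayed under 1 CPM in both groups, PLCH2, PLCL1 and PLCL2, named here for their low levels, and all 3 were called higher. They held 0.134, 0.168 and 0.370 CPM in knockout and 0.0511, 0.0360 and 0.0236 CPM in parental libraries. PLCD4 and PLCD3 rose by 4.42 (SE 0.12) and 2.80 (SE 0.059). PLCH1, PLCG2 and PLCB2 fell by 5.22, 2.80 and 2.49 on the log2 scale (SE 0.17, 0.11 and 0.15). PLCG2, like PRKCB, is known from B cell receptor signalling, and it held 0.521 ± 0.0343 CPM in knockout and 3.64 ± 0.121 CPM in parental libraries (SD, n = 3 each). Of 8 tested diacylglycerol kinases, which end the signal, 6 rose and 2 fell, with a median of 0.47. DGKI rose to 11.7 ± 0.875 CPM in knockout libraries, against 0.105 ± 0.00784 CPM in parental libraries (SD, n = 3 each), a log2 change of 6.79 (SE 0.11), and DGKE, DGKA and DGKQ by 2.05, 1.05 and 0.61 (SE 0.075, 0.059 and 0.077), while DGKD fell by 1.11 (SE 0.048). With total counts only, 3 rose and 2 fell.

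**Figure D4:**
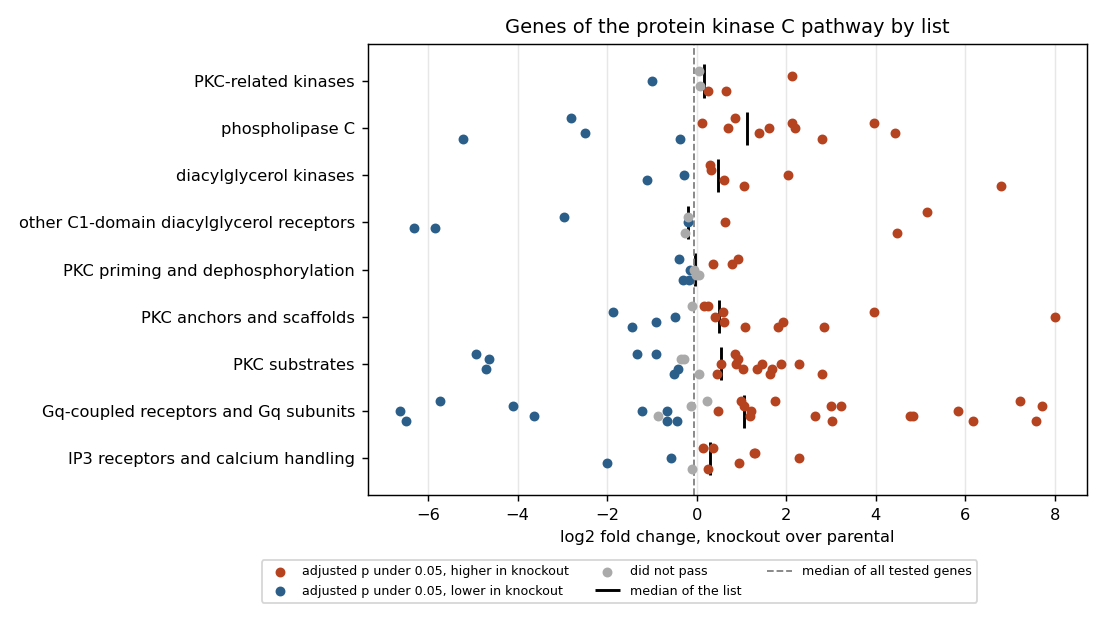
Log2 fold change, knockout over parental, of each tested gene in the 9 lists around PKC signalling, 1 point per gene, coloured by the edgeR call at an adjusted p of 0.05, with a black line at each list's median and a dashed line at the median of all tested genes, -0.06. Lists spread to both sides of 0, and the black lines run from -0.19 for the other diacylglycerol receptors to 1.12 for phospholipase C.

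Genes from families of other proteins that bind diacylglycerol through a C1 domain moved in both directions. Whether each listed member has that domain was not examined. Of 9 tested genes, 3 rose, 4 fell and 2 did not pass (median -0.19), and with total counts only 2 rose and 5 fell. CHN1, a chimaerin that turns off the small GTPase RAC, rose to 50.5, 52.1 and 48.2 CPM in knockout libraries, against 2.38, 2.18 and 2.26 CPM in parental libraries (4.47, SE 0.062). The other chimaerin, CHN2, fell to 0.994, 1.04 and 1.01 CPM in knockout libraries, against 81.3, 81.0 and 81.9 CPM in parental libraries (-6.33, SE 0.064). In neither gene did the groups come near each other. Likewise the RAS activator RASGRP3 rose by 5.15 (SE 0.13) and RASGRP2 fell by 2.97 (SE 0.19), and UNC13A, which primes synaptic vesicles, fell by 5.84 (SE 0.081).

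Of 6 kinases related to PKC, 3 rose, 1 fell and 2 did not pass (median 0.16). Protein kinase D1, PRKD1, which PKC phosphorylates, rose by 2.13 (SE 0.058) and PRKD3 by 0.66 (SE 0.055), while PKN3 fell by 1.00 (SE 0.056). With total counts only, 2 genes of this list rose and 4 fell, and with upper quartile factors 2 rose and 2 fell. Of 10 genes of PKC maturation, which hold its priming kinase PDPK1, mTOR complex subunits, PHLPP phosphatases and the chaperones HSP90AA1, HSP90AB1 and CDC37, 3 rose, 4 fell and 3 did not pass (median -0.04), with none beyond 1 on the log2 scale. With total counts only, 2 rose and 7 fell (median -0.46), and with upper quartile factors 3 rose and 7 fell. The chaperones HSP90AA1 and HSP90AB1 and the kinase PDPK1 were the genes that did not pass. RICTOR, of the mTOR complex that phosphorylates PKC, rose by 0.93 (SE 0.065) and the phosphatase PHLPP2 by 0.79 (SE 0.057). MLST8 and MTOR changed by -0.40 (SE 0.052) and -0.30 (SE 0.057), and MAPKAP1 by 0.37 (SE 0.048), or -0.05 with total counts only.

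Of 16 anchors and scaffolds of PKC, 11 rose, 4 fell and 1 did not pass (median 0.50), and with total counts only 7 rose and 7 fell. CAVIN2, a caveolar protein first described as a PKC substrate and binder, rose to 41.4, 40.9 and 37.8 CPM in knockout libraries, against 0.200, 0.161 and 0.108 CPM in parental libraries (8.003, SE 0.12). The scaffold AKAP12 rose by 2.85 (SE 0.060), SQSTM1 (p62), a partner of atypical isoforms, by 1.94 (SE 0.050) and the 14-3-3 protein YWHAZ by 1.81 (SE 0.052). PARD6G, of the PAR complex, fell by 1.87 on the log2 scale (SE 0.075). RACK1, a ribosomal protein that binds activated PKC and was named here after its values were seen, fell to 394 ± 10.8 CPM in knockout libraries, against 1069 ± 29.8 CPM in parental libraries (-1.44, SE 0.048).

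Of 23 substrates, 13 rose, 7 fell and 3 did not pass (median 0.54), and with total counts only 12 rose and 10 fell. MARCKS, the classical membrane substrate, rose to 760, 760 and 723 CPM in knockout libraries, against 239, 245 and 240 CPM in parental libraries (1.63, SE 0.048). Neurogranin, NRGN, a neuronal substrate, held 2.46, 2.24 and 2.11 CPM in knockout libraries, against 74.8, 65.2 and 66.6 CPM in parental libraries (-4.92, SE 0.074). SNAP25, of vesicle fusion, rose by 2.81 (SE 0.065), the adducin ADD3 by 2.28 (SE 0.054) and the gap junction protein GJA1 by 1.88 (SE 0.054). These are transcript levels of substrates and say nothing of their phosphorylation. Of 10 genes of inositol trisphosphate receptors and calcium handling, 7 rose, 2 fell and 1 did not pass (median 0.31), and with total counts only 4 rose and 5 fell. ORAI3, a pore subunit of store-operated calcium entry, rose by 2.28 (SE 0.059), ITPR2 by 1.31 (SE 0.14) and the calcium sensor STIM1 by 1.29 (SE 0.052), while the calcium pump ATP2A3 fell by 2.00 on the log2 scale (SE 0.13).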

How the data were processed

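The deposited table, made by the authors, holds estimated counts for 62700 genes in 6 library columns. The submitters' processing notes name kallisto 0.48.0 and hg38. Its annotation, filters and the summing of transcripts to genes are not stated there. Per the labels' protocols, polyadenylated RNA was sequenced on an Illumina NovaSeq.

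Counts were rounded, filtered with filterByExpr (minimum count 10, minimum total 15), scaled by TMM and tested by edgeR 4.0.16 (R 4.3.3) with the quasi-likelihood F test, robust dispersions and genotype as the only term, two-sided, with Benjamini-Hochberg adjustment over 28485 genes at 0.05. SEs are the absolute log2 fold change divided by the square root of F. A floor of 3 counts is between 0.00752 and 0.0117 CPM, which covers counting error only. The chi-square per degree of freedom between replicates, over genes with at least 100 counts, was at least 11.1, so no libraries were merged. The steps were tested on simulated data.

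The isoform genes, lists and tests were chosen with earlier results of these data known. Genes named from lists are up to 5 with the largest absolute change among those that passed, with at least 1 CPM on average and groups that did not overlap, except where stated. Values of some genes under these rules, neighbours included, are not reported here. Words of 31 bases were counted in GENCODE release 29 transcripts, on both strands. Alternatives were other scalings, filters, DESeq2 1.42.0, limma-voom (limma 3.58.1), unrounded and thinned counts, a replicate block and leaving out each library.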

Additional observations from a re-analysis of the deposited data

How the results depend on the processing

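Under 16 other settings or sets of libraries, PRKCA, PRKCB, PRKCE and PRKCZ kept their direction and their call, and so did PRKCH in the 15 that tested it, with log2 fold changes from 4.53 to 5.02, from -7.25 to -6.78, from 2.52 to 3.04, from -3.65 to -3.13 and from 0.97 to 1.47. PRKCD was -0.0302 with total counts only and 0.19, no longer passing, with upper quartile factors. PRKCI reversed to -0.305 with total counts only and -0.0845 with upper quartile factors, and no longer passed with no filter on low counts (0.092), at 1 CPM in 3 libraries (0.079) or with the replicate block (0.119, adjusted p = 0.0768); leaving out 1 library gave 0.10 to 0.17, and the call was lost without knockout replicate 1 or 2. PRKCQ, never called, was -0.22 with total counts only and ranged from -0.28 to 0.46 when 1 library was left out. The number of isoform genes called higher was 5, but 3 with total counts only, upper quartile factors or 1 CPM in 3 libraries, a filter that also removes PRKCH and PRKCQ and leaves 6650 higher and 6975 lower genes in all; leaving out 1 library gave 4 to 5. The PRKCB share of the summed isoform level was 1.17% in knockout and 75.3% in parental libraries, 1.35% and 83.7% without division by length, and, added after seeing the data, 3.37% and 89.8% with the shortest transcripts and 1.06% and 73.5% with merged exons. Replicate numbers did not pair the libraries: deviations of same-numbered libraries correlated between -0.0196 and -0.00546, so the block is given only here, and it changed no call of the 8 genes other than that of PRKCI. Low counts limit PRKCQ, with 10 to 25 a library.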
